A study of Arabidopsis thaliana with 24 samples.

Results

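The 10 genes described here are nuclear regulators of the chloroplast: the GOLDEN2-LIKE factors GLK1 (AT2G20570) and GLK2 (AT5G44190), the GATA factors GNC (AT5G56860) and CGA1 (AT4G26150), and the sigma factors SIG1 (AT1G64860), SIG2 (AT1G08540), SIG3 (AT3G53920), SIG4 (AT5G13730), SIG5 (AT5G24120) and SIG6 (AT2G36990). They were taken by locus identifier from a table of 33323 genes, by name and not by a threshold on measured values. All 10 were among the 19986 genes that reached an FPKM (fragments per kilobase of transcript and M mapped reads) of at least 1 in at least 2 libraries. Shoot apices and true leaves of wild-type Arabidopsis thaliana (Col-0) were sampled 90, 94, 98, 102, 106 and 110 h after the plants, raised for 14 days in cycles of 12 h light, had been moved to constant light. Each of the 12 combinations of tissue and time has 2 libraries, 24 in all, each of polyA RNA from 6 to 10 seedlings that were frozen and then dissected. The labels speak of independent experiments behind the replicates but do not tie a replicate number to an experiment, so p-values measure the spread between these samples. The labels name no treatment, although every library name contains the word mock.

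Chloroplasts keep a small genome of their own, and its photosynthesis genes are read by a bacterial-type RNA polymerase, PEP, that needs a sigma factor to find its promoters. All of the plant's sigma factors are encoded in the nucleus, so the nucleus can set which plastid genes are read. GLK1 and GLK2 are MYB-type transcription factors that switch on nuclear genes of chlorophyll synthesis and of the light-harvesting antenna. They act largely redundantly in Arabidopsis rosettes. GNC and CGA1 are B-class GATA factors that promote greening and respond to light, nitrate and cytokinin. Most cells of the shoot apex hold proplastids or young plastids, while true leaves are built mainly of mesophyll cells with mature chloroplasts.

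The upstream sequence of 4 of the 10 genes carried a short motif linked to the circadian clock, and these are shown as the windows that hold one. A daily course in leaves passed a rhythm test for all 4, and also for 5 of the 6 genes without a motif, beside 40.9% of all genes tested. The motifs searched on both strands of the 300 bases before each gene start were the evening element AAAATATCT, the CCA1-binding site AAAAATCT and the G-box CACGTG. Sequence and coordinates are RefSeq's for assembly TAIR10.1, each is written 5′ to 3′ on the strand of its gene, and capitals mark the motif. The windows are chr5:17797962-17798261 (plus strand) for GLK2, chr4:13252784-13253083 (plus strand) for CGA1, chr3:19963981-19964280 (minus strand) for SIG3 and chr5:4430902-4431201 (minus strand) for SIG4.
GLK2: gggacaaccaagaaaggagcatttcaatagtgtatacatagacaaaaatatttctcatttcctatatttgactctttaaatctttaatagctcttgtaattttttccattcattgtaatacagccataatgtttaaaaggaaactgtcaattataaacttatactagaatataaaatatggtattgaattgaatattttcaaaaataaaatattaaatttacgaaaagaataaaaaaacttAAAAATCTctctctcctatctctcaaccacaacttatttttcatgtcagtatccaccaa
CGA1: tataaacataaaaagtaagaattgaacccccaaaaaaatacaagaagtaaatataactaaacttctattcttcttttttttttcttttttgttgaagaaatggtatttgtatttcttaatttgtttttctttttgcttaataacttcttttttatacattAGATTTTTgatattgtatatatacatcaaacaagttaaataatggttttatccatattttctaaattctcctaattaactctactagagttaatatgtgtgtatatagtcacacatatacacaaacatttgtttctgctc
SIG3: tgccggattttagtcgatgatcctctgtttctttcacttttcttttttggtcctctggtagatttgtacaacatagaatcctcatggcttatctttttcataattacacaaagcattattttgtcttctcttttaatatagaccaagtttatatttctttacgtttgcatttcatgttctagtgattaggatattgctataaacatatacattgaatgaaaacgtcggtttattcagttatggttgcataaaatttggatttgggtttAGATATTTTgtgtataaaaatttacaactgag
SIG4: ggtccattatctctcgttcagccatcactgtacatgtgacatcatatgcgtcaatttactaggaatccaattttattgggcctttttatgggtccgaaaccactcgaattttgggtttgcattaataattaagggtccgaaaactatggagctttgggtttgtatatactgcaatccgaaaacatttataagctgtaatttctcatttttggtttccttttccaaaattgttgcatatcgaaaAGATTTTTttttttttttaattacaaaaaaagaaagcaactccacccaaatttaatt
GLK2 held the CCA1-binding site in forward direction, with its first base 59 bases before the gene start. CGA1 and SIG4 held it on the reverse strand, from 140 and 57 bases before the start. SIG3 held the evening element on the reverse strand, from 32 bases before the start. No evening element overlaps a CCA1-binding site in these windows. Among 27443 promoters of the same length, 2.79% held the evening element, 7.94% the CCA1-binding site and 7.09% the G-box. The share holding any of the 3 motifs was not counted, so the count of genes with a motif has no such share beside it. None of the 3 motifs was found in the windows of the other 6 genes, which says only that these letters are not there.

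On the same assembly, GLK1 lies at chr2:8855302-8857758 and GLK2 at chr5:17798262-17800926, both on the plus strand. GNC lies at chr5:22989216-22991530 on the minus strand and CGA1 at chr4:13253084-13255106 on the plus strand. SIG1 lies at chr1:24097736-24100970 and SIG2 at chr1:2703295-2706860, both on the plus strand. The other sigma factor genes lie on the minus strand, SIG3 at chr3:19960789-19963980, SIG4 at chr5:4429095-4430901, SIG5 at chr5:8157151-8160343 and SIG6 at chr2:15537225-15540139. No exonic stretch of 50 bases of any of the 10 genes, the length of the reads, occurred elsewhere in the genome. SIG4 shares 201 bases with AT5G13720 on the opposite strand, and the strand setting of the counting is not stated, so reads of the overlap cannot be told apart. AT5G13720 itself stood at 7.78 ± 0.676 FPKM in the shoot apex and 33.9 ± 3.18 FPKM in leaves (SD, n = 12 each).

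The shoot apex markers and the leaf markers each stood higher in the tissue of their label, and the leaf markers were also well measured in the shoot apex. The summed level of 5 shoot apex markers (STM, KNAT1, LSH4, CYP78A5, CUC1) ran from 192 to 280 FPKM in shoot apex libraries and from 2.67 to 5.32 FPKM in leaf libraries. That of 5 leaf markers (CA1, RCA, SWEET11, GLDP1, CAT2) ran from 260 to 474 FPKM in the shoot apex and from 4339 to 8297 FPKM in leaves. The root gene WOX5 was listed at 0 in all leaf libraries, and with the flower genes AP1 and AG it summed to at most 3.05 FPKM in any library of the shoot apex. In limma WOX5 was higher in the shoot apex by 1.34 ± 0.11 in log2(FPKM + 1) (SE, adjusted p = 1.16e-08). Depth, estimated from the step between low FPKM values, lay between 7.64 and 14.9 M reads for shoot apex libraries and between 11.05 and 14.5 M for leaf libraries. The scarcest value among the 10 genes was SIG4 in shoot apex at 90 h, replicate 2, where about 20.2 reads give a counting error of 22.3%. The sum of all FPKM was 442396 to 496175 in the shoot apex and 510511 to 557504 in leaves, and the median log2 difference of all genes between the tissues was 0.58. After each library was rescaled by its median ratio to the geometric mean of all libraries that median was 0.024, and differences are given on both scales.

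The design asks how far the transcripts of these genes differ between shoot apex and leaves. GLK1, GLK2, GNC and all 6 sigma factors were lower in the shoot apex, and CGA1 was higher there. The tissue difference was the mean of log2(FPKM + 1) in the shoot apex minus that in leaves. It passed at an adjusted p of 0.05 for 10 of the 10 genes in limma's test over all genes. That test took the libraries of a tissue as independent, although those with the same replicate number varied together. Its standard errors and p-values may therefore be too small. Of all genes tested, 21.4% were lower in the shoot apex and 68.6% were higher there, against 9 and 1 of the 10. On the rescaled libraries the shares were 41.4% and 43.2%, and the 10 genes split in the same way. The median difference of the 10 was -1.10 (-1.75 rescaled). In bulk tissue, fewer cells of a type and less RNA per cell cannot be told apart. The leaf markers stood higher in leaves too, and the part of tissue make-up in these differences was not tested.

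**Figure D1:**
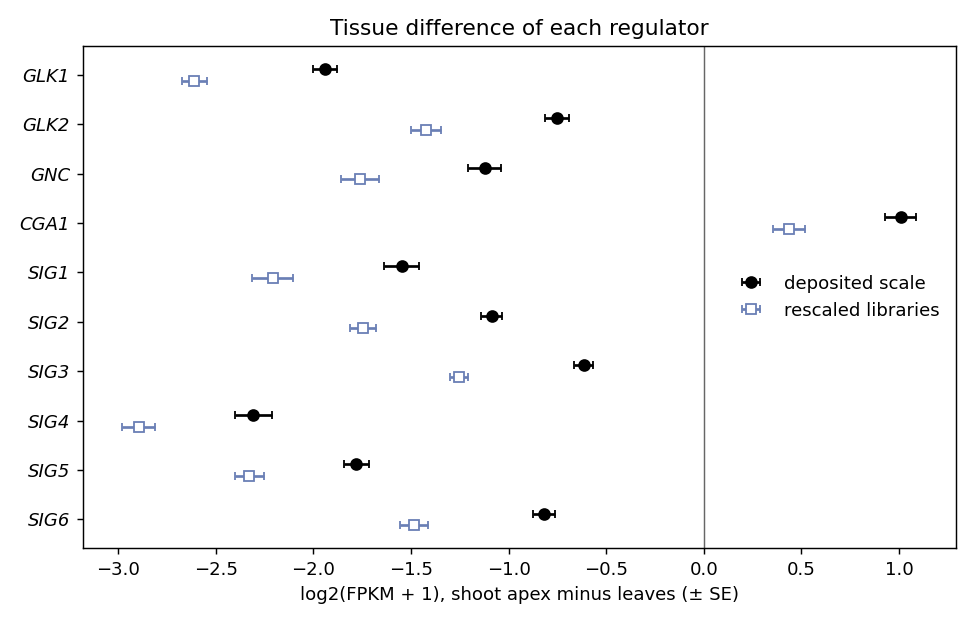
Tissue difference of each regulator in log2(FPKM + 1), given as shoot apex minus leaves ± SE from limma over 24 libraries. Filled circles are the deposited scale and open squares the rescaled libraries, and 9 of the 10 genes lie left of 0 on both while CGA1 lies right of it.

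GLK1, the more abundant GLK gene in leaves, showed the larger tissue difference of the pair. Its 12 shoot apex libraries ran from 17.3 to 28.8 FPKM with a median of 22.7, against 67.4 to 112.9 FPKM with a median of 92.1 in the 12 leaf libraries. The ranges were far apart, and the mean of the shoot apex was 0.252 times that of leaves. The difference was -1.94 ± 0.060 (SE, adjusted p = 3.42e-14; -2.61 rescaled). GLK2 ran from 22.6 to 38.0 FPKM (median 31.1) in the shoot apex, and from 29.9 to 81.1 FPKM with a median of 47.2 in leaves. Its ranges overlapped, since leaf levels at 106 and 110 h lay within reach of the highest shoot apex libraries, taken at other times. The difference of GLK2 was -0.75 ± 0.063 (adjusted p = 8.44e-09; -1.42 rescaled).

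The balance of the GLK pair therefore differed between the tissues. The ratio of GLK1 to GLK2 within a library was 0.802 ± 0.215 in the shoot apex and 1.96 ± 0.825 in leaves (SD, n = 12 each). GLK2 was the more abundant of the pair in 9 of 12 shoot apex libraries, and GLK1 in 11 of 12 leaf libraries. The ratio was not the same at all times. Its shoot apex mean was 0.575 at 98 h and 1.14 at 106 h, and its leaf mean 1.02 at 98 h and 3.18 at 110 h. The sum of the pair was 52.9 ± 4.33 FPKM in the shoot apex and 145 ± 14.6 FPKM in leaves.

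GNC and CGA1, close relatives in the B-class GATA family, went opposite ways. GNC ran from 6.98 to 13.0 FPKM (median 9.10) in the shoot apex, against 12.8 to 30.4 FPKM with a median of 23.2 in leaves. These ranges touch only through the highest shoot apex library and the lowest leaf library, both taken at 102 h. The difference was -1.12 ± 0.087 (adjusted p = 3.07e-09; -1.76 rescaled). CGA1 ran from 4.92 to 11.2 FPKM (median 7.74) in the shoot apex, against 1.85 to 6.91 FPKM with a median of 3.48 in leaves. Its difference was 1.01 ± 0.078 (adjusted p = 3.17e-09), and 0.44 on the rescaled libraries, where it still passed. The ratio of GNC to CGA1 was 1.26 ± 0.415 for the shoot apex and 6.81 ± 2.32 for leaves. The 12 ratios of the shoot apex lay between 0.862 and 1.98, below the 12 of leaves, which lay between 4.17 and 11.2.

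Among the sigma factors the tissue difference was large for SIG4, SIG5 and SIG1 and smaller for SIG2, SIG6 and SIG3. SIG4, which in Arabidopsis directs reading of the plastid gene ndhF, ran from 1.82 to 5.43 FPKM (median 3.92) in the shoot apex and from 11.7 to 39.7 FPKM with a median of 20.6 in leaves. Its shoot apex mean was 0.160 times its leaf mean, and its difference was -2.31 ± 0.097 (adjusted p = 1.31e-12; -2.90 rescaled). AT5G13720, which overlaps it, was also higher in leaves, and its part in the SIG4 values was not tested. SIG5, the sigma factor known for its response to blue light and stress and for carrying clock timing to the chloroplast, ran from 1.22 to 3.60 FPKM (median 2.57) in the shoot apex and from 3.93 to 17.6 FPKM with a median of 11.8 in leaves. The difference of SIG5 was -1.78 ± 0.064 (adjusted p = 2.03e-13; -2.33 rescaled). Neither gene had a shoot apex library as high as its lowest leaf library.

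SIG1, a sigma factor of photosynthesis genes, averaged 16.7 ± 2.42 FPKM in the shoot apex and 52.5 ± 15.3 FPKM in leaves (SD, n = 12 each). The difference was -1.55 ± 0.088 (adjusted p = 6.27e-11; -2.21 rescaled). SIG2, which is needed for reading several plastid tRNA genes, averaged 18.3 ± 2.18 FPKM in the shoot apex and 40.0 ± 4.25 FPKM in leaves, a difference of -1.09 ± 0.054 (adjusted p = 1.04e-11; -1.75 rescaled). SIG6, which acts early in seedling chloroplast development, averaged 24.3 ± 2.59 FPKM in the shoot apex and 43.5 ± 4.19 FPKM in leaves, a difference of -0.82 ± 0.057 (adjusted p = 8.42e-10; -1.48 rescaled). SIG3, known for reading psbN, averaged 10.7 ± 1.43 FPKM in the shoot apex and 17.0 ± 2.45 FPKM in leaves, a difference of -0.62 ± 0.051 (adjusted p = 7.24e-09; -1.26 rescaled). Of these 4 genes the libraries of the tissues overlapped for SIG3 alone.

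In all, 6 genes had every shoot apex library below every leaf library, namely GLK1, SIG1, SIG2, SIG4, SIG5 and SIG6. Of all genes tested, 10.2% did so, while 48.1% had every shoot apex library above every leaf library, as none of the 10 did. GLK2 was the most abundant of the 10 genes in the shoot apex at 29.8 ± 4.70 FPKM, followed by SIG6, GLK1, SIG2, SIG1, SIG3, GNC, CGA1, SIG4 and SIG5. In leaves GLK1 came first at 91.5 ± 12.7 FPKM, followed by GLK2, SIG1, SIG6, SIG2, SIG4, GNC, SIG3, SIG5 and CGA1. FPKM is a level per length, so genes can be ranked within a library. Every pair of neighbours in either order overlapped in range over the 12 libraries of a tissue. Compared within each library, SIG1 was above SIG3 and CGA1 above SIG4 in 12 of 12 shoot apex libraries, and SIG2 was above SIG4 and SIG5 above CGA1 in 12 of 12 leaf libraries. The other neighbours kept their order in 7 to 11 of 12 shoot apex libraries and in 5 to 11 of 12 leaf libraries.

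The sigma factors summed to 76.1 ± 5.98 FPKM in the shoot apex and 187 ± 14.4 FPKM in leaves (SD, n = 12 each), and the mix differed. SIG6 made up 31.9 ± 2.08% of the sum in the shoot apex and 23.2 ± 1.11% in leaves, with no overlap between the 12 libraries of each. SIG3 made up 14.1 ± 1.98% in the shoot apex and 9.10 ± 1.48% in leaves. SIG4 made up 4.78 ± 1.42% in the shoot apex and 12.4 ± 5.40% in leaves. SIG5 made up 3.24 ± 0.944% in the shoot apex and 6.18 ± 2.56% in leaves. SIG1 held 21.9 ± 2.56% in the shoot apex and 27.8 ± 6.84% in leaves. SIG2 held 24.1 ± 1.86% in the shoot apex and 21.4 ± 2.13% in leaves. Shares within a library do not change with the scale of that library.

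**Figure D2:**
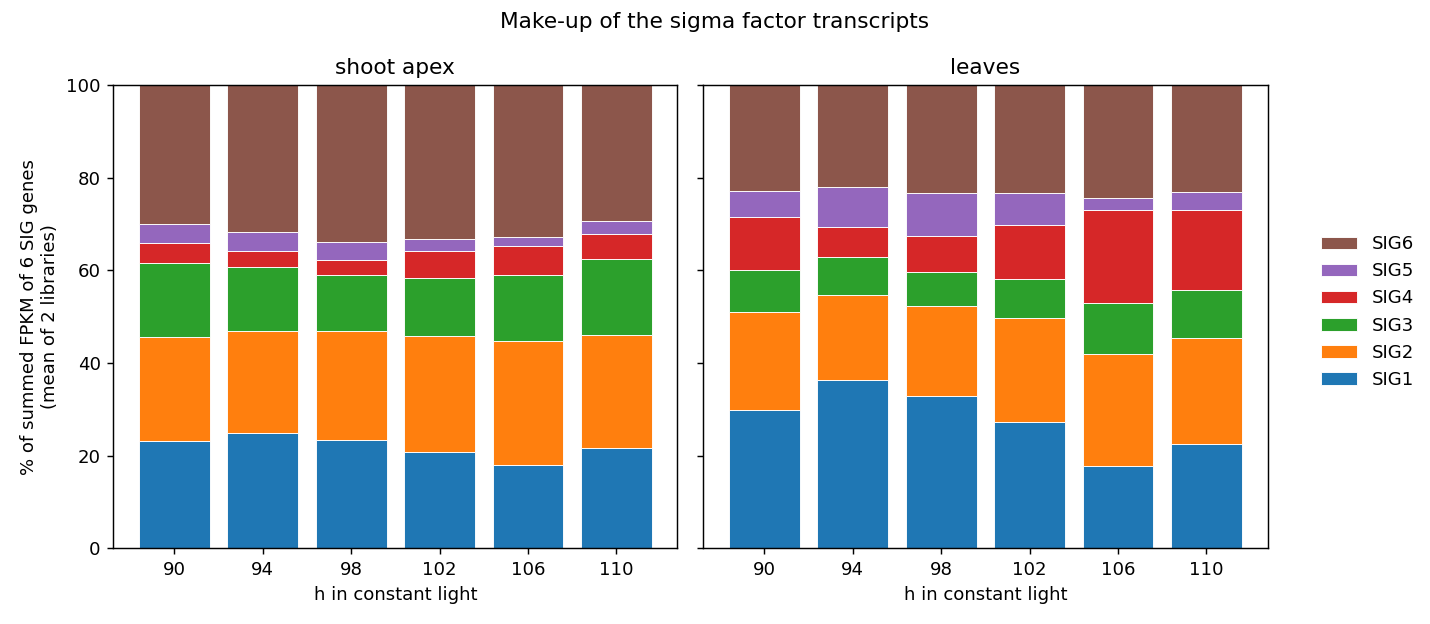
Share of each sigma factor in the summed FPKM of the 6 SIG genes, as stacked percentages (mean of 2 libraries) at each time in constant light, shoot apex on the left and leaves on the right. SIG6 takes a larger share in the shoot apex at every time, and in leaves the SIG4 share widens at 106 and 110 h while the SIG1 and SIG5 shares narrow.

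The tissue difference was also tested at each time. Of 60 combinations of gene and time, 58 passed (limma, adjusted within each time), and no gene changed the sign of its difference. Among all genes, the share lower in the shoot apex was 16.3% at 90 h, 15.2% at 94 h, 14.5% at 98 h, 14.2% at 102 h, 15.9% at 106 h and 16.0% at 110 h. The share higher there was 57.3%, 59.9%, 60.3%, 61.4%, 56.2% and 58.1% at these times. The 2 exceptions were GNC at 102 h (-0.43, adjusted p = 0.0774) and GLK2 at 110 h (-0.31, adjusted p = 0.0772). Both passed when the replicate number was a block within each tissue (adjusted p = 0.0131 for GNC and 0.0211 for GLK2) and on the rescaled libraries (-1.15 for GNC and -0.96 for GLK2). CGA1 was higher in the shoot apex by 0.50 at 94 h (adjusted p = 0.0267) and by 1.61 at 110 h (adjusted p = 1.83e-06). The value at 94 h was lost on the rescaled libraries, where it was -0.13 with an adjusted p of 0.606, and without shoot apex replicate 2 or leaves replicate 1 of that time (adjusted p = 0.167 to 0.220). After rescaling CGA1 did not pass at 98 and 102 h either. Leaving out leaves replicate 2 of the same time ended the calls of GLK2 at 90 h (adjusted p = 0.0539) and GNC at 106 h (0.0506).

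**Figure D3:**
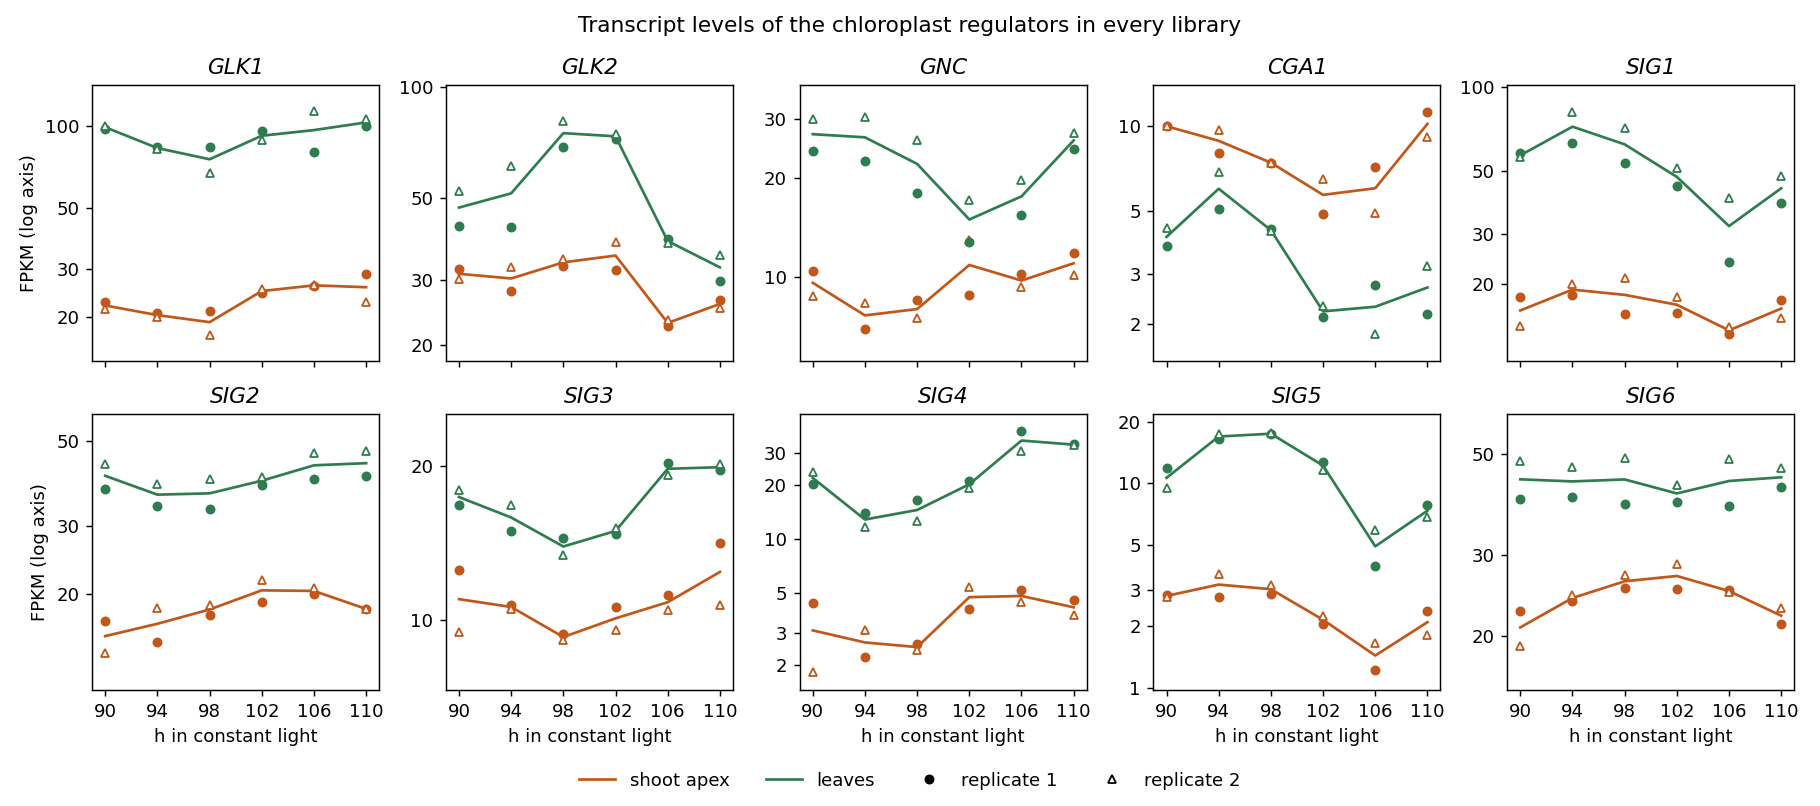
FPKM (log axis) of each regulator in all 24 libraries against hours in constant light, shoot apex in orange and leaves in green, with circles for replicate 1, triangles for replicate 2 and lines through the means. Shoot apex points lie above the leaf points at each time for CGA1 and below them for the other 9 genes, except that GNC points meet at 102 h, and SIG5 in leaves spans 3.93 to 17.6 FPKM.

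The design also asks how the transcripts changed through the sampled 20 h. A 24 h wave was fitted to each gene in each tissue, and its amplitude is the log2 distance from mean to peak. Peak times are hours in constant light, modulo 24. Less than a full cycle was sampled, so a passing wave and any other slow change within these hours look alike to the test. In the shoot apex 6 of the 10 genes passed at an adjusted p of 0.05, against 13.0% of all genes. In leaves 9 passed, against 40.9% of all genes. The exception in leaves was SIG6. On the rescaled libraries 3 of the 10 passed in the shoot apex (11.3% of all genes), namely CGA1, SIG4 and SIG5, and 7 in leaves (39.4%), where GLK1 and SIG2 no longer did. With a replicate block within tissue 7 passed in the shoot apex (20.9%) and 9 in leaves (54.1%).

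**Figure D4:**
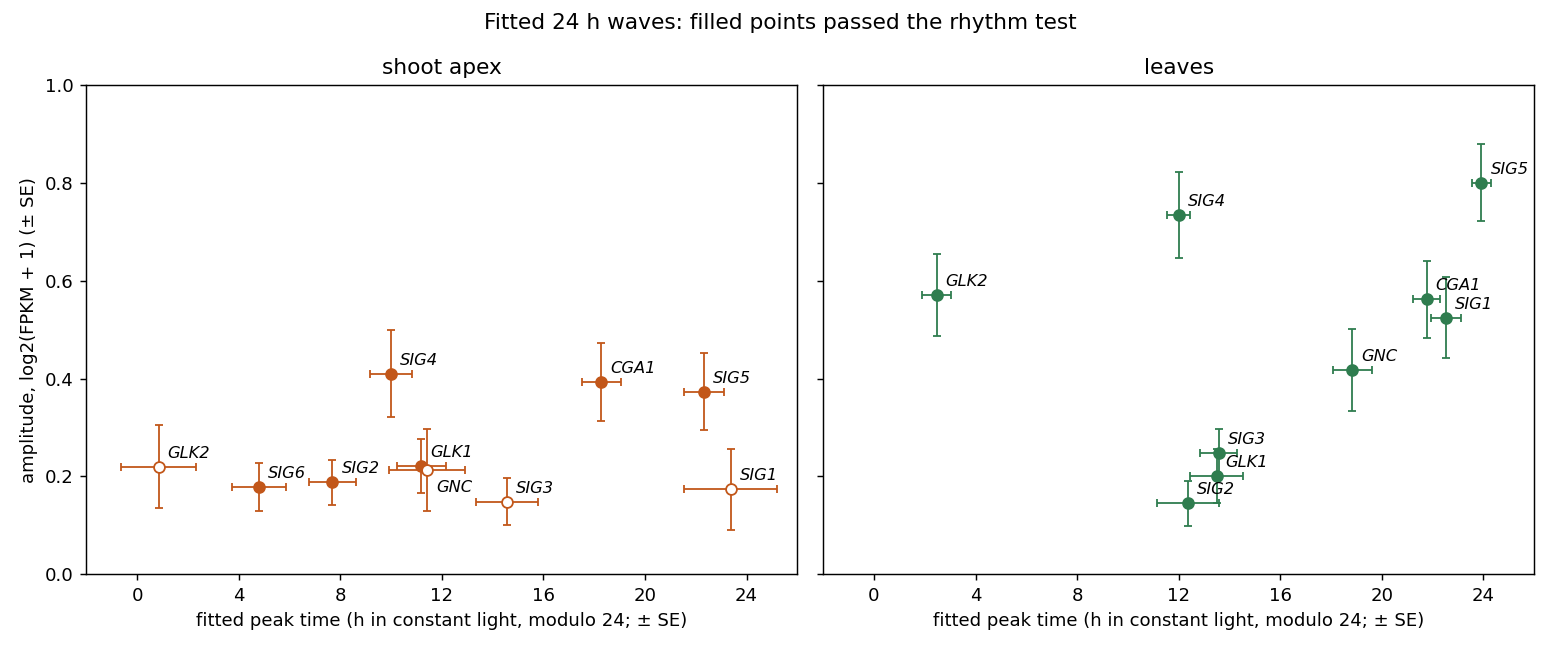
Amplitude of the fitted 24 h wave, in log2(FPKM + 1), against its peak time (h in constant light, modulo 24), both ± SE, shoot apex on the left and leaves on the right. Filled points passed the rhythm test, and SIG6 in leaves (amplitude 0.037) is left out. The leaf points reach 0.80 (SIG5), and those of the shoot apex 0.41 (SIG4).

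SIG5 had the largest leaf amplitude of the 10 genes. In the shoot apex, replicates 1 and 2 had 2.84 and 2.78 FPKM at 90 h, 2.78 and 3.60 at 94 h, 2.89 and 3.18 at 98 h, 2.06 and 2.24 at 102 h, 1.22 and 1.65 at 106 h, and 2.36 and 1.82 at 110 h. In leaves they had 11.8 and 9.46 FPKM at 90 h, 16.4 and 17.5 at 94 h, 17.4 and 17.6 at 98 h, 12.7 and 11.7 at 102 h, 3.93 and 5.90 at 106 h, and 7.86 and 6.84 at 110 h. Both tissues were high at 94 to 98 h and lowest at 106 h, and the replicates of the high and the low time did not overlap. The ratio of the highest to the lowest mean was 2.23 for the shoot apex and 3.56 for leaves. The shoot apex wave reached 0.37 ± 0.078 at 22.3 ± 0.80 h (SE, adjusted p = 0.00647) and the leaf wave 0.80 ± 0.078 at 23.9 ± 0.37 h (adjusted p = 1.91e-07), amplitude and peak time in this order.

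SIG4 ran almost opposite to SIG5. In the shoot apex, replicates 1 and 2 had 4.40 and 1.82 FPKM at 90 h, 2.23 and 3.11 at 94 h, 2.61 and 2.41 at 98 h, 4.08 and 5.43 at 102 h, 5.18 and 4.47 at 106 h, and 4.59 and 3.76 at 110 h. In leaves they had 20.2 and 23.4 FPKM at 90 h, 13.9 and 11.7 at 94 h, 16.4 and 12.6 at 98 h, 21.0 and 19.2 at 102 h, 39.7 and 30.6 at 106 h, and 33.7 and 33.1 at 110 h. SIG4 was thus high at the time when SIG5 was lowest, and its shoot apex replicates at 90 h lay far apart. The shoot apex wave of SIG4 reached 0.41 ± 0.089 at 10.0 ± 0.83 h (adjusted p = 0.00870), and its leaf wave 0.73 ± 0.089 at 12.0 ± 0.46 h (adjusted p = 3.86e-06). The ratio of SIG4 to SIG5 averaged 0.831 at 94 h and 3.48 at 106 h in the shoot apex, and 0.759 at 94 h and 7.65 at 106 h in leaves. Over the 12 group means, each centred on its tissue, the correlation of the pair was -0.95, a description across means that share libraries.

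**Figure D5:**
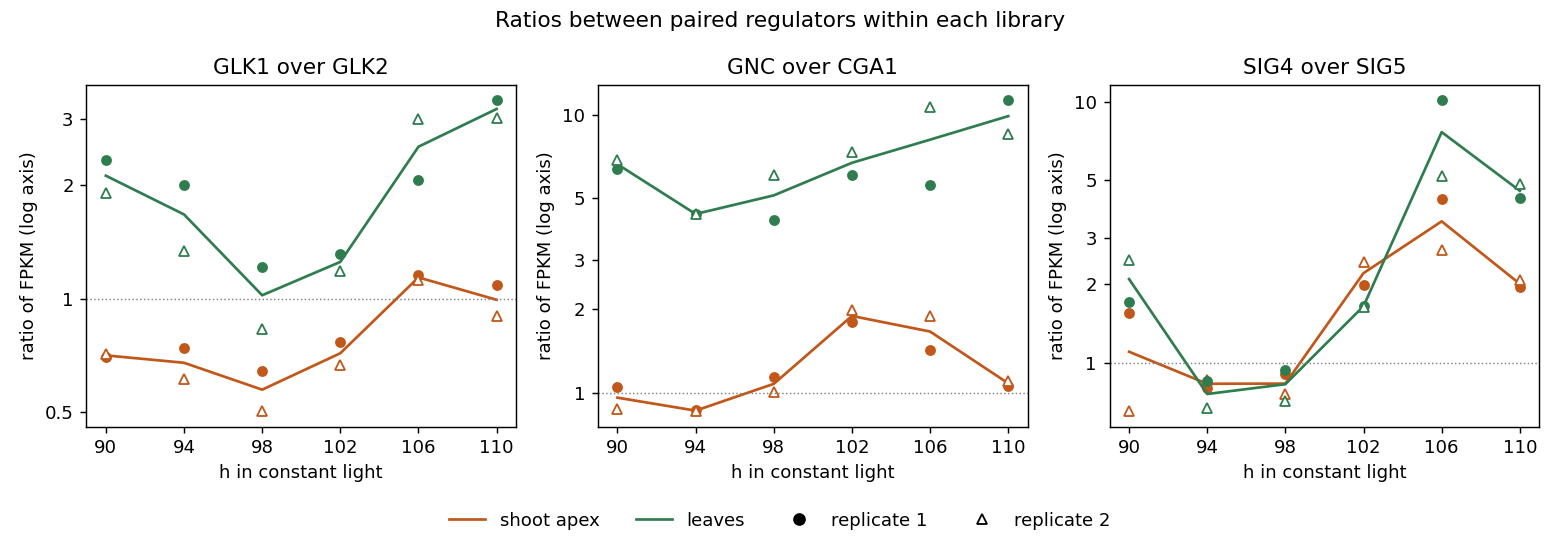
Ratio of FPKM (log axis) between paired regulators within each library against hours in constant light: GLK1 over GLK2, GNC over CGA1 and SIG4 over SIG5, with shoot apex in orange, leaves in green, circles for replicate 1 and triangles for replicate 2. The GNC to CGA1 ratios of the tissues stay apart (0.862 to 1.98 in the shoot apex, 4.17 to 11.2 in leaves), while the SIG4 to SIG5 ratios cross and are highest at 106 h, at 4.26 and 2.71 in the shoot apex libraries and 10.1 and 5.19 in the leaf libraries.

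SIG1 followed SIG5 in leaves, while its fitted wave in the shoot apex was small and did not pass. Its shoot apex libraries had 18.2 and 19.95 FPKM at 94 h and 13.3 and 14.1 FPKM at 106 h, against 63.1 and 81.1 FPKM at 94 h and 23.9 and 40.1 FPKM at 106 h in leaves. The shoot apex wave of SIG1 measured 0.17 ± 0.083 (adjusted p = 0.375), and the leaf wave 0.52 ± 0.083 at 22.5 ± 0.60 h (adjusted p = 1.10e-04). SIG3 had a shoot apex wave of 0.15 ± 0.048 (adjusted p = 0.103), which passed with the replicate block within tissue (adjusted p = 0.0293), and a leaf wave of 0.25 ± 0.048 at 13.6 ± 0.73 h (adjusted p = 8.66e-04). SIG3 replicate 1 was above replicate 2 at 6 of 6 times in the shoot apex.

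SIG2 had small waves in both tissues, while SIG6 had a small wave in the shoot apex and none that passed in leaves. The shoot apex wave of SIG2 was 0.19 ± 0.046 at 7.69 ± 0.94 h (adjusted p = 0.0218), and its leaf wave 0.14 ± 0.046 at 12.4 ± 1.2 h (adjusted p = 0.0432). For SIG6 the shoot apex wave was 0.18 ± 0.049 at 4.79 ± 1.1 h (adjusted p = 0.0477), and the leaf wave 0.037 ± 0.049 (adjusted p = 0.836). The means of SIG6 over time stayed within 1.30-fold in the shoot apex and 1.09-fold in leaves. The SIG6 call in the shoot apex was lost when any of 16 of the 24 libraries was left out (adjusted p up to 0.167), and the SIG2 call in leaves with any of 10 (up to 0.132) and with leaves fitted alone (0.0767). The SIG2 call in the shoot apex was lost without replicate 2 at 90 h, 102 h or 106 h or replicate 1 at 94 h of that tissue (up to 0.0834).

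GLK2 varied with time in leaves, and GLK1 by less. Replicates 1 and 2 of the shoot apex had 32.2 and 30.2 FPKM of GLK2 at 90 h, 28.0 and 32.6 at 94 h, 32.8 and 34.2 at 98 h, 32.0 and 38.0 at 102 h, 22.6 and 23.3 at 106 h, and 26.5 and 25.3 at 110 h. In leaves it had 42.1 and 52.3 FPKM at 90 h, 41.8 and 61.3 at 94 h, 69.0 and 81.1 at 98 h, 72.6 and 74.6 at 102 h, 38.8 and 37.8 at 106 h, and 29.9 and 35.0 at 110 h. Leaves stood high at 98 to 102 h and low at 106 to 110 h without overlap. The shoot apex wave of GLK2 measured 0.22 ± 0.084 (adjusted p = 0.208), and the leaf wave 0.57 ± 0.084 at 2.47 ± 0.56 h (adjusted p = 4.79e-05). GLK1 waves were 0.22 ± 0.056 at 11.2 ± 0.96 h for the shoot apex (adjusted p = 0.0260) and 0.20 ± 0.056 at 13.5 ± 1.1 h for leaves (adjusted p = 0.0183). The GLK1 call was lost in leaves without replicate 2 at 98 h (adjusted p = 0.105) and with leaves fitted alone (0.0555). It was lost in the shoot apex without replicate 2 at 94, 98 or 106 h or replicate 1 at 106 or 110 h of that tissue (up to 0.0668).

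The GATA pair peaked late in the cycle in leaves. CGA1 had 9.99 and 10.0 FPKM at 90 h, 8.05 and 9.72 at 94 h, 7.44 and 7.43 at 98 h, 4.92 and 6.53 at 102 h, 7.16 and 4.92 at 106 h, and 11.2 and 9.19 at 110 h in the shoot apex. In leaves it had 3.76 and 4.37 FPKM at 90 h, 5.12 and 6.91 at 94 h, 4.32 and 4.27 at 98 h, 2.12 and 2.32 at 102 h, 2.76 and 1.85 at 106 h, and 2.18 and 3.21 at 110 h. The shoot apex was already back at its highest level at 110 h, when leaves were still low. CGA1 waves were 0.39 ± 0.079 at 18.3 ± 0.77 h for the shoot apex (adjusted p = 0.00480) and 0.56 ± 0.079 at 21.8 ± 0.54 h for leaves (adjusted p = 2.72e-05). GNC waves were 0.21 ± 0.084 for the shoot apex (adjusted p = 0.226) and 0.42 ± 0.084 at 18.8 ± 0.77 h for leaves (adjusted p = 0.00138). Leaves had 24.03 and 30.02 FPKM of GNC at 90 h and 12.8 and 17.1 FPKM at 102 h, and replicate 2 was above replicate 1 at 6 of 6 times, as it was for SIG2 and SIG6 in leaves.

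Without a shape assumed, 1 of the 10 genes differed among the times in the shoot apex and 7 in leaves (limma F-test), against 4.67% and 23.2% of all genes. SIG5 was the gene that passed in the shoot apex (adjusted p = 0.0324), and that call was lost when any of 9 libraries was left out (adjusted p up to 0.166). On the rescaled libraries 0 of the 10 passed in the shoot apex (3.65% of all genes), with 4 at an unadjusted p under 0.05. The share of all genes under that unadjusted threshold was not counted. With the replicate block within tissue 3 genes passed in the shoot apex (13.2% of all genes), GLK2 (adjusted p = 0.0169), CGA1 (0.0353) and SIG5 (0.0181). In leaves GLK2, GNC, CGA1, SIG1, SIG3, SIG4 and SIG5 passed. The adjusted p was 6.49e-06 for SIG5, 1.08e-04 for GLK2, 0.00121 for SIG4, 0.00153 for CGA1, 0.00765 for SIG1, 0.0290 for SIG3 and 0.0311 for GNC. With the block the count in leaves was 7 again (43.7% of all genes), and on the rescaled libraries it was 5 (22.7%), without GNC and SIG3. With the leaf libraries fitted alone it was also 5, without GNC (adjusted p = 0.136) and SIG1 (0.0826). GNC was also lost without leaves replicate 2 at 90 or 110 h or replicate 1 at 102 or 106 h (adjusted p = 0.0554 to 0.142), and SIG3 without any of 8 libraries.

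The difference of the fitted waves between the tissues was tested directly and passed for 3 of the 10 genes, against 10.6% of all genes. Rescaling gave again 3 (9.91% of all genes). Peak and amplitude differences are given as shoot apex minus leaves. The fitted peaks of GNC differed by -7.42 ± 1.7 h (adjusted p = 0.0144), although its shoot apex wave did not pass. CGA1 peaks differed by -3.48 ± 0.94 h, the shoot apex being the earlier, and its amplitudes by -0.17 ± 0.11 (adjusted p = 0.0311). SIG5 amplitudes differed by -0.43 ± 0.11, the shoot apex wave being the smaller, and its peaks by -1.59 ± 0.88 h (adjusted p = 0.0171). With the replicate block within tissue 8 of the 10 passed (20.2% of all genes), adding GLK2 (adjusted p = 0.0474), SIG1 (0.0297), SIG2 (0.0208), SIG4 (0.0398) and SIG6 (0.00841). The CGA1 call was lost without any of 8 libraries (up to 0.0715), and the SIG5 call with a pseudocount of 0.1 (0.0897). Fits without a replicate number leave 1 library for each tissue and time, so only effect sizes are given. Without replicate number 1 the amplitude difference was -0.20 for GNC and -0.26 for CGA1. Without replicate number 2 it was -0.17 for GNC, -0.036 for CGA1 and -0.49 for SIG5. The interaction of tissue and time, with no shape assumed, passed for 0 of the 10 genes in limma (2.66% of all genes), with 4 at an unadjusted p under 0.05. The share of all genes under that unadjusted threshold was not counted. With the replicate block within tissue 3 passed (11.5% of all genes), GLK2 (adjusted p = 0.0242), GNC (0.00983) and SIG5 (0.0314).

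The clock genes gave the timing of the free-running cycle in these libraries. All 6 of CCA1, LHY, PRR9, PRR7, GI and TOC1 passed the rhythm test in both tissues. The morning gene CCA1 peaked at 22.9 h in the shoot apex and at 0.28 h in leaves, and the evening gene TOC1 at 12.0 h in the shoot apex and 12.4 h in leaves. SIG5 peaked within an hour of CCA1 in both tissues, and SIG4 in leaves within an hour of TOC1. These positions are descriptions of fitted peaks.

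Of 17 genes of chlorophyll synthesis and light harvesting that GLK1 and GLK2 switch on, 17 were lower in the shoot apex, beside 21.4% of all genes (41.4% rescaled). Their median difference was -2.33 (-3.01 rescaled), beside 0.58 over all genes. LHCA2, an antenna protein of photosystem I, differed by -2.73 ± 0.065, and the photosystem II antenna genes LHCB4.2 and LHCB5 by -2.54 ± 0.072 and -2.40 ± 0.066 (limma adjusted p of 2.19e-15, 1.25e-14 and 1.05e-14). A daily course passed the test for 15 of the 17 in the shoot apex (13.0% of all genes) and for 16 of them in leaves (40.9%). The fitted peak fell between 0 and 6 h for 13 of those 15 in the shoot apex and for 15 of those 16 in leaves. Among all genes that passed, 20.8% peaked in this window in the shoot apex and 10.7% in leaves. GLK2 peaked in that window in leaves and GLK1 did not.

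Of 5 further genes of the B-class GATA family, 4 were tested, and 4 were higher in the shoot apex (median 1.93, rescaled 1.28). Of all genes tested, 68.6% were higher in the shoot apex on the deposited scale and 43.2% rescaled, with medians of 0.58 and 0.024. GATA23 did not reach the filter. GATA17 stood at 39.9 ± 6.14 FPKM in the shoot apex and 9.66 ± 1.64 FPKM in leaves, a difference of 1.94 ± 0.060 (adjusted p = 3.81e-14). GATA15 differed by 1.76 ± 0.060 (adjusted p = 1.02e-13) and GATA16 by 1.96 ± 0.072 (adjusted p = 2.65e-13).

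Of 13 genes of proteins that assemble with the plastid polymerase PEP, 9 were higher in the shoot apex, 1 was lower and 3 did not pass (median 0.37). That share is close to the 68.6% of all genes tested that were higher there (median 0.58). On the rescaled libraries 1 was higher and 9 were lower, with a median of -0.30, so the direction of this list depends on the scale. Of all genes, 43.2% were higher and 41.4% lower on that scale (median 0.024). The gene lower in the shoot apex on the deposited scale was pTAC7 (-0.85 ± 0.052; -1.53 rescaled). FSD3, an iron superoxide dismutase of the plastid nucleoid, was higher by 0.91 ± 0.070 (0.25 rescaled). FSD2, its partner, was higher by 0.51 ± 0.042 and lower after rescaling (-0.14). All 3 had limma adjusted p-values of at most 8.75e-09 on the deposited scale.

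Among 6 genes of phage-type polymerases and sigma factor partners, 4 were higher and 2 lower in the shoot apex (median 0.56, rescaled -0.07), close to the 68.6% and the median of 0.58 of all genes. RPOTm, the mitochondrial polymerase, was higher by 1.10 ± 0.069 (0.50 rescaled), and RPOTmp, which serves mitochondria and plastids, by 1.02 ± 0.052 (0.50 rescaled). DG1, which binds SIG6, was higher by 0.54 ± 0.037 on the deposited scale and stood at -0.07 rescaled. SIB1 and SIB2, which bind SIG1, differed by -2.23 ± 0.26 and -0.50 ± 0.15 (-2.83 and -1.16 rescaled).

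Of 15 upstream regulators (light receptors, PIF and HY5 factors, cytokinin response factors and others), 8 were higher in the shoot apex, 5 were lower and 2 did not pass (median 0.16), beside 68.6% higher and 21.4% lower among all genes. On the rescaled libraries 6 were higher and 8 lower (median -0.49), beside 43.2% higher and 41.4% lower among all genes (median 0.024). The blue light receptor gene CRY1 differed by -0.98 ± 0.038 and PIF5, a growth factor gene acting below phytochrome, by -1.25 ± 0.054, and both were also lower after rescaling. PHYA, the far-red light receptor gene, was higher by 0.83 ± 0.037 (0.18 rescaled). Of 8 plastid division genes, 4 were higher, 3 were lower and 1 did not pass on the deposited scale (median 0.11). On the rescaled one 0 were higher and 7 lower (median -0.55). The shares of all genes on each scale are those given for the upstream regulators. GC1 differed by -1.68 ± 0.051 and ARC5, a dynamin of the division ring, by -0.49 ± 0.053, while FTSZ1 and PDV1 were higher by 0.61 ± 0.053 and 0.54 ± 0.045 and stood at -0.07 and -0.10 rescaled.

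The courses of the 10 genes were also compared with those of 10450 genes of at least 5 FPKM in both tissues. The measure was the correlation over 12 group means of log2(FPKM + 1), each centred on its tissue, and it says nothing of shared function. SIG5 was closest to CARAB-AK-LYS (0.97) and RUP2 (0.97), and SIG4 to AT5G42825 (0.98) and AT4G30650 (0.98). GLK2 was closest to the cytokinin response regulator gene RR12 (0.95), which is also in the list of upstream regulators, and to UMAMIT12 (0.93). GLK1 was closest to OEP6 (0.97) and AT3G11720 (0.96), CGA1 to BAG1 (0.95) and ROS3 (0.95), and GNC to PRL1 (0.93) and AT3G05180 (0.90). SIG1 was closest to GBSS1 (0.97) and FTSH9 (0.97), SIG2 to CLPP5 (0.96) and MEE11 (0.96), SIG3 to AT1G12760 (0.98) and AT5G13590 (0.97), and SIG6 to DRT112 (0.98) and MEE51 (0.94). Among the 10 genes themselves, SIG1 and SIG5 correlated at 0.93, GLK1 and SIG4 at 0.84, GLK2 and SIG3 at -0.89, and GLK1 and GLK2 at -0.63.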

How the data were processed

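Shoot apex and true leaf RNA was measured in 24 libraries. The authors deposited 1 table of FPKM values per gene. STAR 2.5.0c, HOMER and TAIR10 are named in the submitters' processing notes; settings, read counts and the handling of shared reads are not given in the sources used here. A gene with a text cell was left out. Columns were matched to samples by the library names in the labels.

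The 19986 genes with FPKM of 1 or more in 2 or more libraries entered limma 3.58.1 in R 4.3.3 as log2(FPKM + 1), a scale whose pseudocount of 1 understates changes of low genes. Empirical Bayes used a trend, and p-values were adjusted by Benjamini-Hochberg over all these genes. The delta method gave the standard errors of peak times. Depth was estimated from the steps of low FPKM values. Python 3.11.15 with pandas 2.3.3, numpy 2.4.6 and matplotlib 3.10.9 made the tables and figures. The fits were tested on simulated data.

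The 10 genes were picked by name with no threshold on values, but they, the lists and the alternatives were chosen with earlier results of these data known. All 10 genes were named. From each other list the text names up to 3 genes with the smallest adjusted p for the tissue difference and up to 2 against its majority, and for each rhythmic gene the 2 closest courses. The alternatives changed the pseudocount (0.1), the filter (none, or a mean FPKM of 5 or more), the scale (rescaled libraries), the spread (robust empirical Bayes), the wave (periods of 22 and 26 h) or the samples (1 tissue alone, or without each library or replicate number), or added the replicate number as a block. Replicate differences of 2 times correlated at 0.16 to 0.44 within the shoot apex and 0.55 to 0.76 within leaves. Between tissues at the same time they correlated at 0.053 to 0.32. The replicate numbers thus pair times within a tissue, and the main fits did not include that pairing. Their standard errors and p-values treat all libraries as independent, so those of the tissue difference may be too small.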

Additional observations from a re-analysis of the deposited data

Results flagged for a closer look

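The fitted waves of 3 genes differed between the tissues by limma's test of the difference itself, which is why they are listed here. Of all genes tested, 10.6% passed it. The test takes peak and amplitude together, and neither was tested alone. The adjusted p was 0.0144 for GNC, with a peak difference (shoot apex minus leaves) of -7.42 ± 1.7 h and a shoot apex wave that did not pass a rhythm test of its own. It was 0.0311 for CGA1, with a peak difference of -3.48 ± 0.94 h. It was 0.0171 for SIG5, with an amplitude difference of -0.43 ± 0.11. The SIG5 call was lost with a pseudocount of 0.1 (limma adjusted p = 0.0897), where the amplitude difference was -0.36. SIG5 averaged 2.45 FPKM in the shoot apex and 11.6 FPKM in leaves, and the pseudocount of 1 understates changes of low genes. The size of its amplitude difference thus depends on the pseudocount. With 2 libraries at each time, no single library could be tested for standing apart.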

How the results depend on the processing

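Of 4190 results of the 10 genes under other settings, 4045 stayed on the same side of the threshold, 105 lost a call, 39 gained one and 1 reversed. The tissue difference kept its call and direction for all 10 genes in each of 31 alternatives. The reversed value was CGA1 at 94 h on the rescaled libraries (-0.13). The count of the 10 genes with a shoot apex time course was 1, against 0 on the rescaled libraries, 0 in the shoot apex alone, 2 with the replicate block, 3 with the replicate block within tissue, and 0 to 2 without a library or replicate number. With leaves alone the leaf time courses were 5 against 7 and the leaf rhythms 7 against 9. Over all genes these were 3107 against 4629 and 7018 against 8175. For the shoot apex rhythm the count was 6, against 3 rescaled and 1 to 6 without a library or replicate number. The rhythm difference gave 3, against 6 with the replicate block, 8 with the block within tissue, and 0 to 4 without a library or replicate number. The interaction gave 0, against 1 with the replicate block, 3 with the block within tissue, and 0 to 1 without a library. Some calls also appeared when 1 library was left out, which leaves 1 library in its group. The shoot apex time course appeared for SIG4 without either shoot apex library at 90 h. It also did for CGA1 without shoot apex replicate 1 at 106 h, and for GLK2 without either leaf library at 94 h. The shoot apex rhythm appeared for SIG3 without shoot apex replicate 2 at 90 h, and the leaf time course for GLK1 without leaves replicate 1 at 106 h. The rhythm difference appeared for GLK2 without leaves replicate 2 at 90 h or replicate 1 at 94 h (0.0264 to 0.0305) and for SIG4 without shoot apex replicate 1 at 90 h or leaves replicate 1 at 98 h (0.0205 to 0.0444), and the interaction for SIG5 without leaves replicate 2 at 106 h (0.0224). The tissue difference appeared for GNC at 102 h without shoot apex replicate 2 or leaves replicate 1 of that time (0.0213 to 0.0400) and for GLK2 at 110 h without either leaf library at 94 h (0.0307). The cause was not tested. All groups share 1 estimate of the spread, so leaving out a library of 1 tissue also changes the tests of the other. Leaving out a replicate number leaves 1 library for each tissue and time.

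Over all genes, the count higher in the shoot apex was 13720, against 8625 rescaled and 9021 with a mean FPKM of at least 5, where fewer genes were tested, and the count higher in leaves was 4283, against 8268 rescaled. The replicate block within tissue gave 2647 shoot apex time courses against 933 (1484 with the plain block) and 8740 leaf time courses against 4629. It gave 4182 shoot apex rhythms against 2608 and 4034 rhythm differences against 2127 (3017 with the plain block). Its interactions numbered 2293 against 532 (1051 with the plain block). With the shoot apex fitted alone, 730 shoot apex time courses passed. Leaving out libraries or replicate numbers gave 974 to 2684 shoot apex rhythms, 370 to 2177 rhythm differences and 325 to 564 interactions. Depth limits SIG4 in the shoot apex most, where the lowest library holds about 20.2 reads, followed by CGA1 in leaves (33.7) and SIG5 in the shoot apex (42.2).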
